A study of Mus musculus with 28 samples.

Results

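Cyp2e1, Cyp2f2, Cyp2c40, Cyp4b1, Cyp2j6, Cyp4f14 and Cyp2d22 are cytochrome P450 genes that the untreated mouse liver transcribes without an inducer. They were taken by their probe names, as 7 of the 120 gene probes on a focused 2-colour array and 7 of its 32 probes with a Cyp symbol. Tbxas1 and Ptgis, which the scanner named Cyp5a1 and Cyp8a1, are not among the 32. The 7 were chosen by their log2 ratios of inducer-treated to saline liver RNA, which were low, so their values in inducer-treated mice and on arrays of the same RNA are a description and carry no test. Values after the antivirals were not used in that choice and were tested.

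The arrays measured total RNA from livers of female C57BL/6 mice aged 8-10 weeks. The positive control, 4 mice, received 60 mg/kg phenobarbital (PB) for 3 days plus 1 dose of 80 mg/kg β-naphthoflavone (BNF) on the second day. Adefovir dipivoxil went to 5 mice and tenofovir disoproxil to another 5, each at 25 mg/kg intraperitoneally for 3 days, and the reference mice received saline. Livers were collected on day 4, which was 24 hours after the last treatment. Every array set treated RNA against 1 shared pool of saline RNA, which the sample labels describe as 10 mice and the treatment protocol as 5. A ratio to saline therefore leaves out the spread among saline mice. Each antiviral mouse had 2 arrays with exchanged dyes, each positive-control mouse 1 array with its RNA in Cy3, and pooled positive-control RNA was run on 4 further arrays, 2 in each dye. The whole liver was sampled, so fewer cells of a type and less RNA per cell cannot be told apart.

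P450 enzymes are heme proteins of the endoplasmic reticulum that oxidise drugs, solvents, steroids and fatty acids. Constitutive P450 genes of the liver are driven by hepatocyte factors such as HNF4A and the C/EBP proteins, whereas phenobarbital acts through the nuclear receptor CAR and β-naphthoflavone through the aryl hydrocarbon receptor. The 7 genes have different tasks and places. Cyp2e1 oxidises ethanol and other small molecules and is a gene of hepatocytes around the central vein. Cyp2f2, which oxidises naphthalene, belongs to hepatocytes around the portal vein. Cyp2c40 and the Cyp2j family oxidise arachidonic acid, Cyp4f14 hydroxylates leukotrienes, Cyp4b1 activates furan toxins and oxidises fatty acids, and Cyp2d22 is a mouse relative of human drug-oxidising CYP2D enzymes.

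The genes lie on 5 chromosomes. Cyp2e1 and Cyp2f2 are on chromosome 7, Cyp4b1 and Cyp2j6 on chromosome 4, Cyp2d22 on chromosome 15, Cyp4f14 on chromosome 17 and Cyp2c40 on chromosome 19. RefSeq promoter sequences of build GRCm38.p6 were matched by symbol for 6 of the 7, and the 250 bases before the gene start were searched on both strands for 6 short motifs. Capitals mark the matches in the promoters of Cyp2e1 (chr7:140763569-140763818, plus strand), Cyp2f2 (chr7:27119705-27119954, plus strand) and Cyp2c40 (chr19:39812815-39813064, minus strand). These 3 are shown because they had the lowest mean ratios in the positive-control mice.
Cyp2e1: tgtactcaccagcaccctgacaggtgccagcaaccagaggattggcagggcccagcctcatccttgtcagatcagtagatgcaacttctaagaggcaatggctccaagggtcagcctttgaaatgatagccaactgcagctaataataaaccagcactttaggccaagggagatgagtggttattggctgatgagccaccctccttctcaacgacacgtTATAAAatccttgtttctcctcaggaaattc
Cyp2f2: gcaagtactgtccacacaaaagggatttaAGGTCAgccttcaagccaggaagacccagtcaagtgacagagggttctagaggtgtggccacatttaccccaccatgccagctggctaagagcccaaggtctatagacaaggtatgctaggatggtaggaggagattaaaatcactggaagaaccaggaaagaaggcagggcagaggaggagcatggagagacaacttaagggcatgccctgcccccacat
Cyp2c40: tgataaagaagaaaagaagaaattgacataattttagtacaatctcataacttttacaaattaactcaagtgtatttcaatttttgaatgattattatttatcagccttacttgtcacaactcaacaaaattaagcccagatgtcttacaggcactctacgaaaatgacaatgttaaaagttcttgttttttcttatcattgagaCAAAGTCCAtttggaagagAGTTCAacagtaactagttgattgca

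The 6 promoters shared none of the motifs. Cyp2e1 held the TATA box TATAAA at position -31 relative to the gene start, a motif that 12.4% of 32851 mouse promoters of this length held. Cyp2f2 held the nuclear receptor hexamer AGGTCA (4607 of 32851 promoters). In Cyp2c40 the HNF4-type site CAAAGTCCA lay at position -45 and was the rarest motif searched, at 0.384% of promoters. The same promoter held the nuclear receptor hexamer AGTTCA (11.8%). Its GC content was 29.2%, against a median of 52.4% over all promoters. Cyp4f14, which has 4 promoter entries, held in the first of them the C/EBP-type site TTGCNNAA (9.56%) and GCGTG, the core of the aryl hydrocarbon receptor element (28.2%). Cyp4b1 and Cyp2j6 held none of the 6 motifs. No motif overlapped another in these windows, and a letter match is not evidence of a bound factor.

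All 7 genes were measured in saline liver on most arrays. A probe counted as above background when at least 2 of its 3 spots had a median over the local background by 2 background SDs. On the 20 antiviral arrays the saline channel of Cyp2e1, Cyp2f2, Cyp2c40, Cyp2j6 and Cyp2d22 passed on 20 of 20, that of Cyp4f14 on 19 and that of Cyp4b1 on 18. The raw saline signal over its background had a median of 76.0 for Cyp2e1 (23.1 to 194 over arrays), 30.9 for Cyp2f2 and 17.4 for Cyp2c40. Medians were 12.01 for Cyp2d22, 6.56 for Cyp2j6, 3.97 for Cyp4b1 and 3.72 for Cyp4f14. These ratios show how far each probe cleared its own background, and different probes are not comparable as RNA levels. Probes of close relatives, such as the Cyp2c, Cyp2d, Cyp2j and Cyp4f families, can cross-hybridise, so the values of Cyp2c40, Cyp2d22, Cyp2j6 and Cyp4f14 are uncertain in that respect.

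The positive-control arrays were dimmer in the saline channel, whose dye, Cy5, is marked as bad in the file headers. Of 120 probes, 9 to 29 cleared background in saline there, against 38 to 78 on the antiviral arrays and 33 to 53 on the pool arrays. The saline channel of Cyp2e1 and Cyp2f2 cleared background on 4 of 4 positive-control arrays and that of Cyp2d22 on 3, but those of Cyp2c40 and Cyp4b1 on 1 and those of Cyp2j6 and Cyp4f14 on 0. The treated channel cleared it on 4 of 4 for each of the 7. Raw treated intensity exceeded raw saline intensity on every one of these arrays for all 7 genes. Cyp2e1 had raw treated medians of 5041 to 17114 against saline medians of 2597 to 4463. Before background correction and normalization, no ratio of the 7 genes was thus below 0 on those 4 arrays.

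**Figure D1:**
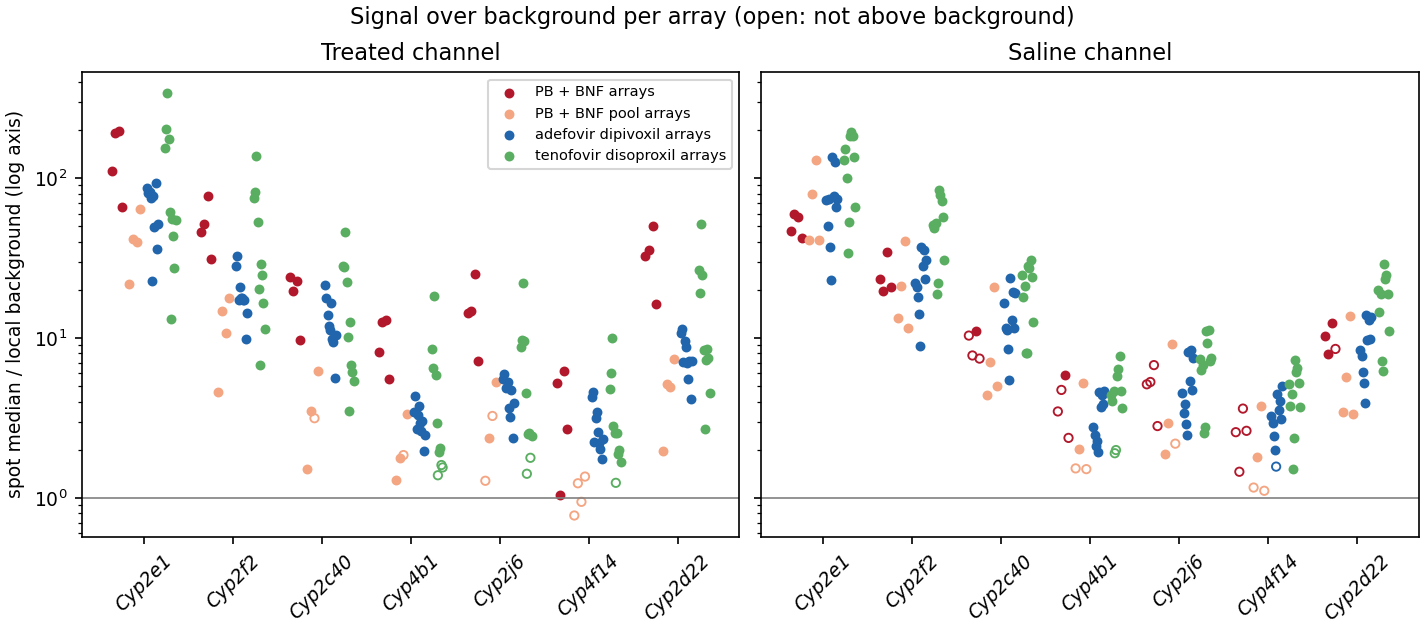
Spot median over local background (log axis) for the 7 genes in the treated channel (left) and the saline channel (right), 1 point per array and 1 colour per group; open points did not clear background. Open saline points cluster on the positive-control arrays for Cyp2c40, Cyp4b1, Cyp2j6 and Cyp4f14, while Cyp2e1 and Cyp2f2 are filled throughout.

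After phenobarbital plus β-naphthoflavone, log2 ratios to saline averaged below 0 for all 7 genes, with Cyp2e1 and Cyp2f2 lowest, while the drug-inducible Cyp1a2 and Cyp2b10 were far above 0. The 7 means had a median of -0.49, against 0.00 over all 120 probes. Ratios come from arrays corrected for background, normalized within each array by an intensity-dependent loess curve and corrected for each probe's dye effect. With limma over all probes and a Benjamini-Hochberg threshold of 0.05, 6 of the 7 passed as lower, but 1 did with median centring of the arrays. Of all probes, 20.0% passed as lower, 21.7% as higher and 41.7% in either direction, and since this contrast chose the genes nothing is read from their count.

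Cyp2e1 had log2 ratios of -1.60, -1.35, -1.09 and -1.77 in the 4 positive-control mice and of -1.13, -1.46, -1.54 and -1.09 on the 4 pool arrays. Every value lay below -1, although the pool values were not corrected for this probe's dye effect of 0.14. The mean was -1.45 ± 0.29 (SD, n = 4) in single mice, or 2.73-fold lower than saline. It was the lowest mean of the 120 probes in both sets. In the antiviral mice the lowest Cyp2e1 value was -0.30, so the groups did not overlap.

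Cyp2f2 followed in the mice with -1.39, -0.60, -0.92 and -1.30. On the pool arrays it had -1.08, -0.84, -0.83 and -0.97. Its pool mean of -0.93 was the 7th lowest of the probes, and that of Cyp2c40 was lower. The Cyp2f2 mean of -1.05 ± 0.36 in single mice corresponds to 2.08-fold less than saline, and again no positive-control mouse overlapped an antiviral one. Cyp2e1 of the central zone and Cyp2f2 of the portal zone were thus both low in the same 4 mice. Among the other markers fixed for these zones only Cyp1a2, a central gene and a target of the aryl hydrocarbon receptor, was on the array. Its mean in these mice was above saline, at 2.31, the opposite direction to Cyp2e1.

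Cyp2c40 varied most between mice of the 3 lowest genes, with -1.10, -0.08, -0.51 and -1.01. Its mean was -0.68 ± 0.48, and mice 1 and 4 lay about a unit below mouse 2. The pool arrays read -0.73, -1.20, -1.25 and -1.24, a mean of -1.10, and their treated channel cleared background on 3 of 4. The saline channel cleared it on 1 of 4 single-mouse arrays, so the single-mouse ratios rest on a dim channel and no fold is given.

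Cyp4b1 had -0.72, -0.38, -0.48 and -0.33 in the mice, a mean of -0.48 ± 0.17. On the pool arrays it had -0.06, -0.34, -0.33 and -0.32. All 8 values were negative, but the pool values were not corrected for the dye effect of this probe, 0.15. That effect is larger in size than the -0.06 of pool array 1, which had treated RNA in Cy5. The saline channel of Cyp4b1 cleared background on 1 of 4 single-mouse arrays, so these ratios rest on a dim channel and no fold is given. On the pool arrays its treated channel cleared background on 3 of 4 and its saline channel on 2. For Cyp4b1 the mice did not overlap the antiviral mice. With Cyp2e1 and Cyp2f2 it made 3 of the 7 genes without overlap, where 6.67% of all probes had every positive-control mouse below every antiviral mouse. This share too belongs to the contrast behind the choice of genes. The separation held for Cyp4b1 in 4 of the 5 ways of scaling the arrays, was lost with median centring, and held for Cyp2e1 and Cyp2f2 with loess only. The share of all probes without overlap was 4.17% with median centring and 12.5% with calibration RNAs. It was 19.2% with luciferase and 10% with the 3 housekeeping genes.

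Cyp2j6 and Cyp4f14 had no saline signal above background on any positive-control array, and no fold is given for them. Cyp2j6 had -0.75, -0.47, -0.16 and -0.29 in the mice and -0.20, -0.61, -0.35 and -0.25 on the pool arrays. On the pool arrays its treated channel cleared background on 2 of 4 and its saline channel on 3. For Cyp4f14 the mice had -0.63, -0.19, -0.45 and -0.71, and the pool arrays -0.21, -0.68, -0.84 and -0.59 with the treated channel not above background on any of the 4. Both genes overlapped the antiviral mice with loess, but Cyp4f14 did not under any of the 4 other scalings and Cyp2j6 did not with luciferase centring. Of all probes, 4.17% to 19.2% had no overlap under those 4 scalings, with the highest share under luciferase.

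The data did not bear out a lower level of Cyp2d22 in single mice. It had -0.75, 0.29, 0.06 and -0.44, so 2 of 4 mice lay above saline, and its mean of -0.21 ± 0.47 was smaller than its SD. The pool arrays had -0.10, -0.25, -0.03 and -0.31, a mean of -0.18. It was the 1 gene of the 7 that did not pass in the positive control, but that contrast chose the genes, so nothing is read from this.

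**Figure D2:**
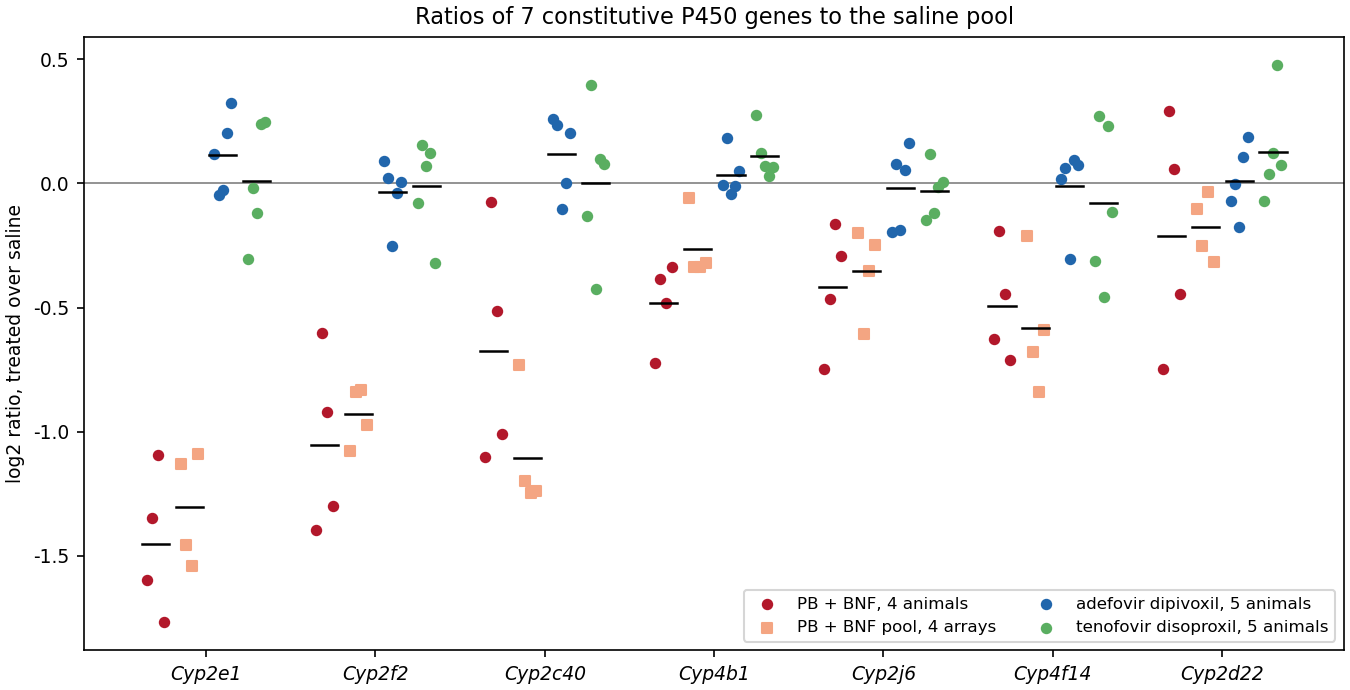
Log2 ratio to saline for the 7 genes, with 1 circle per mouse, 1 square per pool array (not corrected for dye) and a black bar at each group mean. Positive-control mice and pool arrays lie below -1 for Cyp2e1 and scatter on both sides of 0 only for Cyp2d22, and all antiviral values lie between -0.46 and 0.48.

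The 4 positive-control mice were not alike. Over the 7 genes the median log2 ratio was -0.75 in mouse 1 and -0.71 in mouse 4, but -0.38 in mouse 2 and -0.48 in mouse 3. All 7 genes were negative in mice 1 and 4, and 6 of 7 in mice 2 and 3, where Cyp2d22 was positive. Each mouse had a single array, so a mouse and its slide cannot be told apart.

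How low these genes appeared depended on the scaling of the arrays. When single-mouse arrays were centred by 1 constant instead of the loess curve, the Cyp2e1 mean was -0.27 with the median of gene probes, -0.76 with added calibration RNAs, -0.75 with added luciferase RNA and -0.73 with Actb, Gapdh and Ppia. Cyp2f2 had -0.31, -0.79, -0.78 and -0.77 under the same 4 centrings, and Cyp2c40 -0.30, -0.78, -0.78 and -0.76. Cyp4f14 had -0.67, -1.15, -1.15 and -1.13, against a saline channel that was not above background on any of these arrays. Cyp2d22 turned to 0.24 with median centring.

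These centrings also shifted the whole array. The median of all 120 probes in the positive control was 0.00 with loess, -0.08 with median centring, -0.57 with calibration RNAs, -0.56 with luciferase and -0.54 with the 3 housekeeping genes. Calls over all probes were 26 higher and 24 lower with loess, 32 and 10 with median centring, 17 and 74 with calibration RNAs, 18 and 80 with luciferase, and 19 and 78 with the housekeeping genes. Relative to the median of all probes, any constant centring put Cyp2e1 at -0.19, Cyp2f2 at -0.23 and Cyp2c40 at -0.22. By the same measure Cyp4b1 had -0.12, Cyp2j6 -0.04 and Cyp2d22 0.32. Cyp4f14 had -0.59 and was the 3rd lowest of 120 probes under a constant. Its saline channel, like that of Cyp2j6, was not above background on any single-mouse array of the positive control. Cyp2e1 was the lowest of 120 probes under loess and the 23rd lowest under a constant.

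The pool arrays, where each RNA was read in both dyes, gave a steadier order. Relative to the median of all probes, Cyp2e1 had -1.30 with loess and -1.15 with a constant, Cyp2f2 -0.93 and -1.11, and Cyp2c40 -1.10 and -1.45. Cyp4f14 had -0.58 and -0.73, Cyp2j6 -0.35 and -0.45, Cyp4b1 -0.26 and -0.36, and Cyp2d22 -0.17 and -0.52. All 7 lay below the median of all probes with loess and with a constant. This distance is the same under each of the 4 constant centrings by construction. Against saline itself the pool value of Cyp4b1 turned to 0.07 with calibration RNAs and 0.14 with luciferase, and that of Cyp2j6 to 0.05 with luciferase. These 4 arrays repeat 1 pool of RNA, so their spread is technical.

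**Figure D3:**
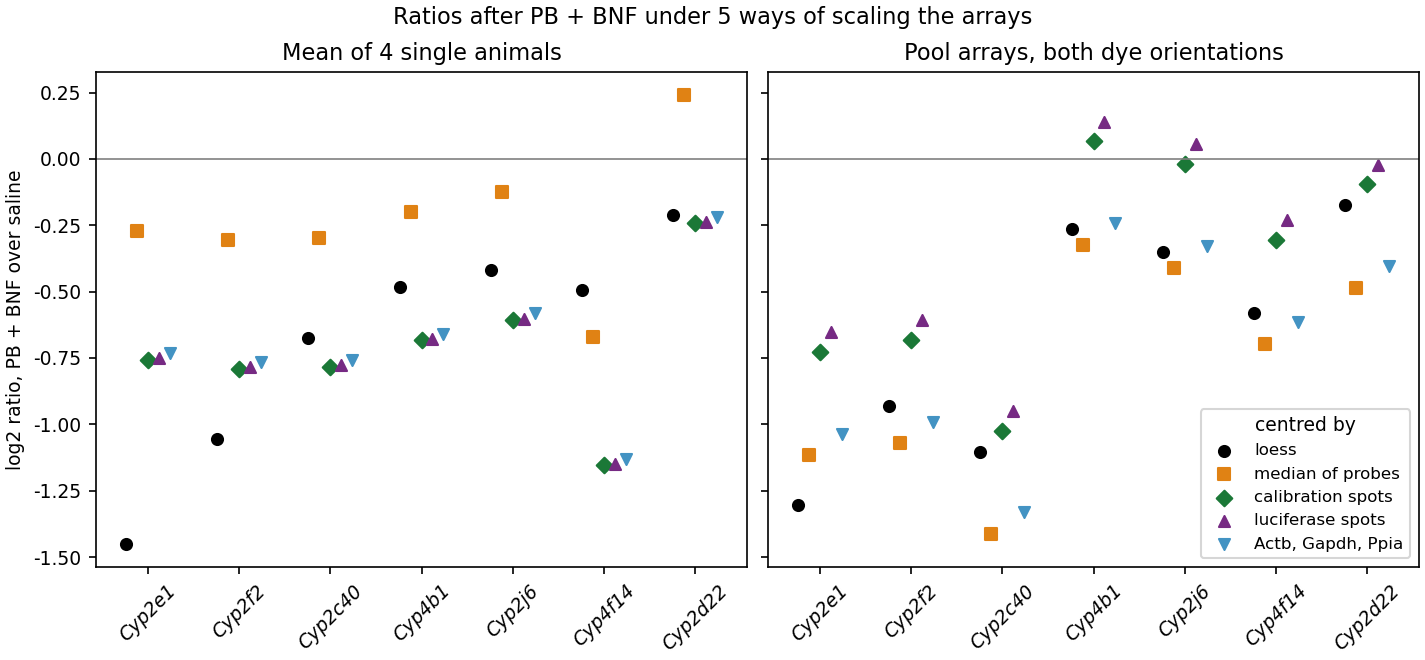
Mean log2 ratio to saline after phenobarbital plus β-naphthoflavone for the 7 genes under 5 scalings, in single mice (left) and on pool arrays (right). In single mice Cyp2e1 moves between -1.45 and -0.27 with the scaling, and on pool arrays between -1.30 and -0.65.

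A comparison that leaves the weak Cy5 channel out, chosen after seeing the data, set positive-control RNA in Cy3 against saline RNA in Cy3 on 10 antiviral arrays. Levels were centred on 35 probes above background in Cy3 on all 28 arrays. The Cyp2e1 log2 level averaged 1.87 ± 0.47 in the positive control (4 arrays) and 2.51 ± 0.16 in saline (10 arrays), a difference of -0.64. Differences were -0.67 for Cyp2f2, -0.81 for Cyp2c40 and -0.87 for Cyp4f14. Cyp4b1, Cyp2j6 and Cyp2d22 had 0.32, 0.15 and 0.14. Pool RNA in Cy3 (2 arrays) stood below the saline mean for all 7 genes, from -1.67 for Cyp2c40 to -0.79 for Cyp4b1. Cyp4f14 cleared background on 0 of these 2 arrays. With centring on calibration spots the pool differences ran from -1.13 for Cyp2c40 to -0.25 for Cyp4b1. Only Cyp2c40 and Cyp4f14 then lay below all 10 saline levels. The median difference in single mice was -0.64 for the 7 genes and -0.04 for all 120 probes.

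In Cy3 alone the positive-control levels of Cyp2f2 and Cyp4f14 lay below all 10 saline levels, as they did for 8.33% of probes. The 10 saline levels repeat 1 pool of saline RNA, so their spread is technical and leaves out the spread among saline mice. The positive-control levels of the other 5 genes overlapped saline, and with centring on calibration spots all 7 did. RNA on different slides is compared here, so slide and treatment cannot be told apart. Adefovir RNA read the same way stood 0.44 above saline for Cyp4f14 and 0.42 for Cyp4b1. With centring on calibration spots, differences in the positive control were -0.19 for Cyp2e1, -0.23 for Cyp2f2, -0.36 for Cyp2c40 and -0.43 for Cyp4f14. They were 0.77 for Cyp4b1, 0.60 for Cyp2j6 and 0.59 for Cyp2d22.

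**Figure D4:**
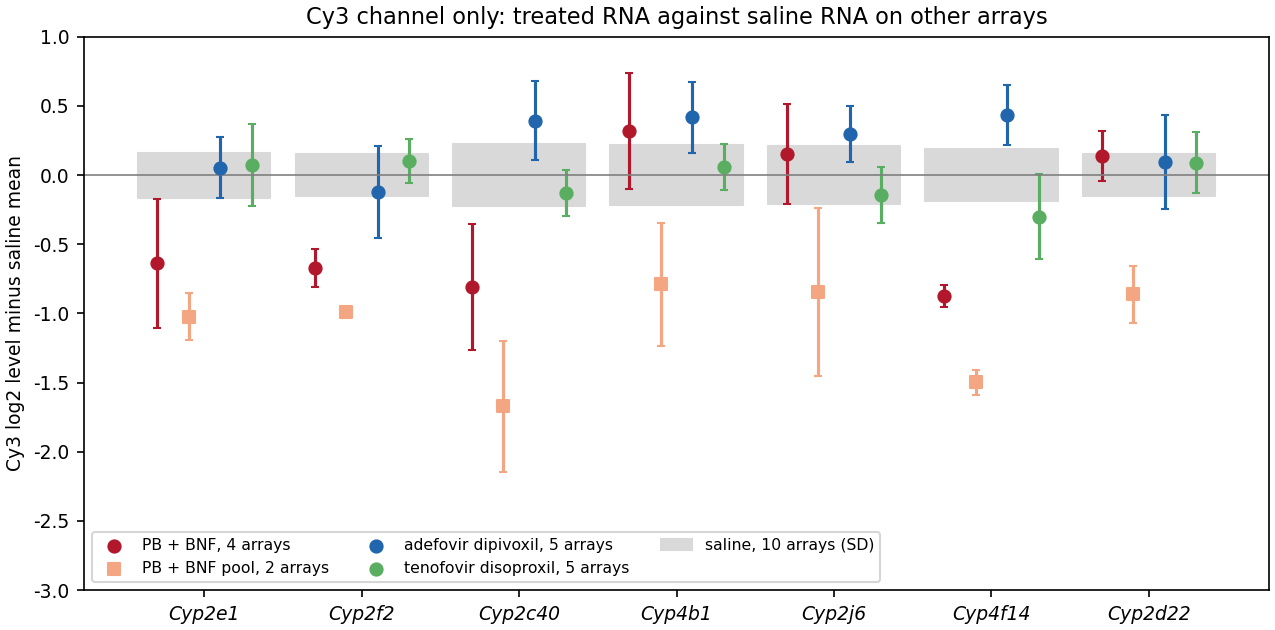
Cy3 log2 level minus the saline mean for the 7 genes. Points are group means, whiskers 1 SD over the arrays, and grey bands 1 SD over 10 arrays of the 1 saline pool. Positive-control points lie at -0.64 to -0.87 for Cyp2e1, Cyp2f2, Cyp2c40 and Cyp4f14 and above 0 for Cyp4b1, Cyp2j6 and Cyp2d22.

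After the antivirals no change of the 7 genes passed the test. Adefovir dipivoxil and tenofovir disoproxil are prodrugs of adenine nucleoside phosphonates that block viral polymerases, and the labels ask how such drugs bear on P450 expression. With loess, all 70 values of the 7 genes in 10 mice lay within 0.5 log2 units of 0, from -0.46 to 0.48. None of the 7 passed with limma in either group, and over all probes 1.67% passed after each drug. An unadjusted p under 0.05 was found for none of the 7, against 15 of 120 probes after adefovir and 20 after tenofovir. The 95% intervals of all 14 means lay between -0.30 and 0.40. These are loess values. Over all 5 scalings the means ran from -0.09 to 0.38 after adefovir, with Cyp2e1 highest under calibration RNAs, and from -0.24 for Cyp2f2 under median centring to 0.36 for Cyp4b1 under calibration RNAs after tenofovir, and none of the 7 passed in any. The antiviral and positive-control ratios share the saline pool, and their difference was not tested.

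After adefovir, Cyp2e1 had 0.12, -0.05, -0.03, 0.20 and 0.33 in the 5 mice. The mean was 0.12 ± 0.16 (SD, n = 5; 95% interval -0.09 to 0.32; adjusted p = 0.667 with limma), the smallest adjusted p of the 7 genes there. Cyp2c40 had 0.26, 0.24, -0.10, 0.00 and 0.20, a mean of 0.12 with an interval of -0.16 to 0.40. Cyp2f2 had 0.09, 0.02, -0.25, -0.04 and 0.01, and its mean of -0.03 had an interval of -0.24 to 0.18. Mice of both signs occurred for each of the 3.

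The other 4 means after adefovir were also near 0. Cyp4b1 averaged 0.03 ± 0.09, Cyp2d22 0.01 ± 0.14, Cyp4f14 -0.01 ± 0.17 and Cyp2j6 -0.02 ± 0.16 (SD, n = 5 each). Cyp4f14 owed its spread to mouse 3, at -0.30, while its other mice had 0.02 to 0.09. All 7 genes were negative in mouse 3, with a median of -0.17, and none was negative in mouse 5, with a median of 0.17. The median of all probes was 0.00 in mouse 3 and 0.01 in mouse 5.

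After tenofovir, Cyp4b1 had the most even values, 0.28, 0.12, 0.07, 0.03 and 0.07. It was above saline in 5 of 5 mice, with a mean of 0.11 ± 0.10 (95% interval -0.01 to 0.24; adjusted p = 0.351 with limma), and did not pass. The sign depended on the dye, with a mean of 0.35 on the 5 arrays with treated RNA in Cy3 and -0.13 on the 5 with it in Cy5, where 4 of 5 were negative. Cyp2d22 had -0.07, 0.04, 0.12, 0.48 and 0.07, a mean of 0.13 with an interval of -0.12 to 0.38. Cyp2e1 had -0.30, -0.02, -0.12, 0.24 and 0.25, which averaged 0.01 ± 0.24.

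Cyp2c40 and Cyp4f14 were the most variable after tenofovir. Cyp2c40 had -0.13, 0.40, -0.43, 0.10 and 0.08, a mean of 0.00 ± 0.30. Cyp4f14 had -0.31, 0.27, -0.46, 0.23 and -0.12, a mean of -0.08 ± 0.32. Cyp2f2 averaged -0.01 ± 0.19 and Cyp2j6 -0.03 ± 0.11. In mice 1 and 3 the 7 genes had medians of -0.13 and -0.12, and in mice 2 and 4 both had 0.12.

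Tenofovir differs from adefovir by a methyl group on the side chain of the nucleoside phosphonate, and the ester groups of the prodrugs differ as well. Both drugs were dosed at 25 mg/kg on the same schedule, and the saline pool cancels in their difference. None of the 7 genes differed past the threshold (smallest adjusted p = 0.983 with limma; 0% of probes passed and 3 had an unadjusted p under 0.05). The difference, adefovir minus tenofovir, was 0.11 for Cyp2e1 (95% interval -0.18 to 0.40), 0.12 for Cyp2c40 (-0.28 to 0.51) and -0.02 for Cyp2f2 (-0.32 to 0.27). It was -0.12 for Cyp2d22 (-0.48 to 0.24), -0.08 for Cyp4b1 (-0.25 to 0.10), 0.07 for Cyp4f14 (-0.25 to 0.38) and 0.01 for Cyp2j6 (-0.22 to 0.25). The intervals leave room for differences of up to about 0.5 log2 units either way, and so do not show that the drugs act alike.

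**Figure D5:**
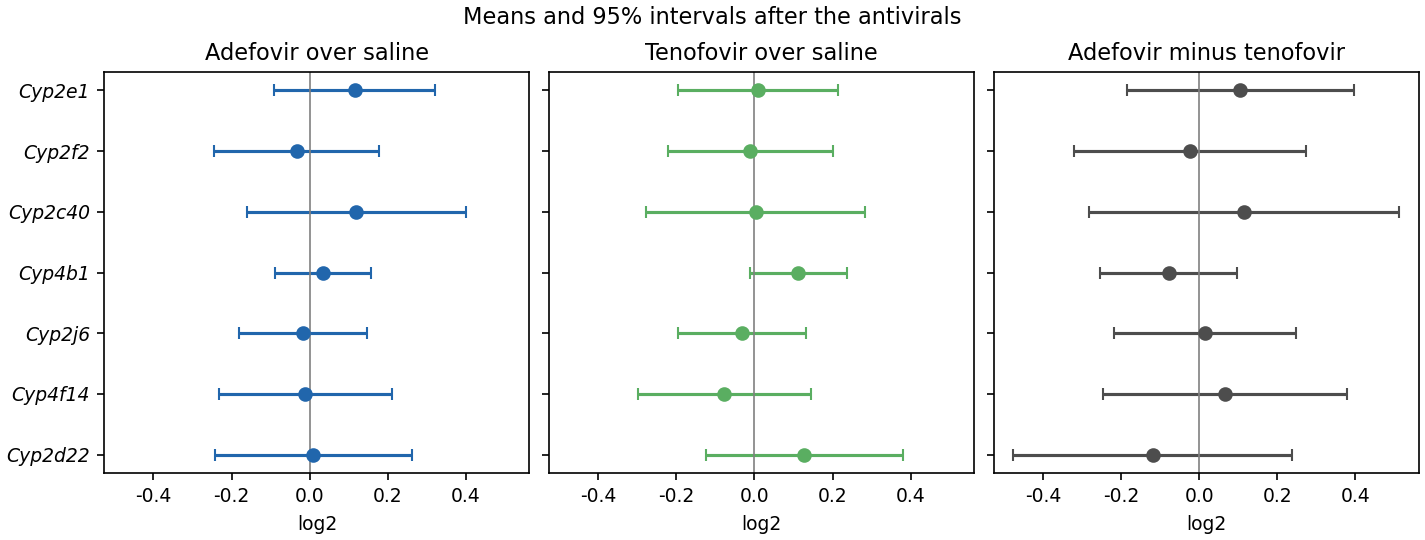
Mean log2 ratio and 95% interval for the 7 genes in adefovir over saline, tenofovir over saline and adefovir minus tenofovir. All 21 intervals include 0, and the widest reaches 0.51 for Cyp2c40 in the difference between the drugs.

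Across the 10 antiviral mice the 7 genes tended to move together. Of 21 gene pairs, 17 had a positive Pearson r, with a median of 0.42, against -0.03 over all pairs of the 67 probes above background on most arrays. The highest r was 0.86 for Cyp2c40 with Cyp4f14 and the lowest -0.64 for Cyp2e1 with Cyp4b1. Values of 1 mouse share its slides and normalization, so these figures are a description.

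Outside the 7, the probes whose ratios over all 14 mice were most like the mean of the 7 were Slc10a1, the bile acid importer of hepatocytes (r = 0.91), Scp2, a sterol carrier (r = 0.89), and Abcg8, a sterol exporter (r = 0.80), among 60 candidates. The positive-control mice stood apart and set these values, since over the 10 antiviral mice alone r was 0.04, 0.00 and -0.10. In the positive control Scp2, above background in both channels of all 4 arrays, averaged -0.80 by loess and 0.17 with median centring. Slc10a1 averaged -0.70 by loess and -0.25 with median centring, with a saline channel above background on 1 of 4 arrays. Abcg8 was above background there on 2 of 4 arrays in the treated and 0 of 4 in the saline channel, and no value is given for it.

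Of the other 25 probes with a Cyp symbol, 10 were higher in the positive control, 4 were lower and 11 did not pass. Their median was 0.11 with loess and 0.42 with median centring, but -0.07 with calibration RNAs, -0.06 with luciferase and -0.04 with the housekeeping genes. The 6 largest changes were rises, with log2 ratios of 2.31 for Cyp1a2 and 2.15 for Cyp1a1, both classic targets of the aryl hydrocarbon receptor, 1.61 for Cyp2b10 and 1.05 for Cyp2b13, of the phenobarbital-inducible subfamily, 0.86 for Cyp3a13 and 0.85 for the sterol demethylase Cyp51. The saline channel of Cyp1a1 and Cyp2b10 was not above background on any of the 4 arrays. The split of this list was 13 higher and 2 lower with median centring, 12 and 9 with calibration RNAs, 12 and 11 with luciferase, and 12 and 9 with the housekeeping genes. After adefovir 2 of the 25 fell, the retinoic acid hydroxylase Cyp26a1 (-1.07) and Cyp1a2 (-0.59), and after tenofovir 1 fell, Cyp26a1 (-1.07). Cyp26a1 RNA cleared background in the treated channel on 1 of 10 adefovir and 2 of 10 tenofovir arrays, and the Cyp1a2 call was lost with 3 of the 4 other centrings. The list medians were -0.05 after adefovir and -0.02 after tenofovir.

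Of 25 listed regulators and partners of P450 genes, 11 were on the array. None passed after either antiviral, and in the positive control 2 were lower, Alas1, the first enzyme of heme synthesis (-1.02), and Cebpa, the hepatocyte factor C/EBPα (-0.41), both with a saline channel above background on 1 of 4 arrays. The Cebpa call was lost with median centring (-0.27, adjusted p = 0.129 with limma). The median of the 11 was -0.04. With calibration RNAs 10 of the 11 passed as lower and their median was -0.67, close to the shift of all probes. The receptor gene Nr1i3, which codes for CAR, had -0.04 and Hnf4a 0.02 by loess, neither of them past the threshold.

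Hepatocyte markers were on the array for 8 of 11 genes listed, and 7 of these cleared background on most arrays. In the positive control 1 of the 8 was higher, Cyp8b1 (0.70), and 2 were lower, Slc10a1 (-0.70) and Cyp7a1 (-0.21). The saline channel was above background on 0 of 4 arrays for Cyp8b1, 1 for Slc10a1 and 0 for Cyp7a1, whose treated channel was so on 1. With median centring the calls of Slc10a1 (adjusted p = 0.143 with limma) and Cyp7a1 (adjusted p = 0.0654 with limma) were lost. The list then had 4 higher and 0 lower, with a median of 0.37 against -0.04 with loess. With calibration RNAs, luciferase or the housekeeping genes it had 2 higher and 3 lower. None of the 8 passed after the antivirals. No marker listed for Kupffer cells, endothelium, stellate cells, cholangiocytes or blood and no acute phase or endoplasmic reticulum stress gene was on the array, so the part of cell composition or inflammation in these values was not tested.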

How the data were processed

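Liver RNA of 14 treated mice and of 1 pool of positive-control RNA was measured against pooled saline RNA on 28 arrays with 578 spots, of which 360 belong to 120 gene probes with 3 spots each. Per the file headers, the deposited scanner files hold the median intensity of each spot and of its local background in both channels, not background-subtracted and not normalized. The authors' series table holds a log2 ratio per probe and array. It ran as treated over saline (r with the scanner values 0.760 to 0.996, median 0.940) and lacked a value in 53.3% of gene probe cells. The sources used here do not give its normalization and centring. Its column medians were -0.17 to 0.45 for single positive-control mice, 0.49 to 0.81 and -0.28 to -0.23 for the pool in Cy3 and in Cy5, 0.20 to 0.94 and -1.04 to -0.04 for adefovir in Cy3 and in Cy5, and 0.25 to 0.78 and -1.54 to 0.60 for tenofovir.

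Groups came from the sample titles. In R 4.3.3 with limma 3.58.1, background was corrected by normexp (offset 50), arrays were normalized by loess (span 0.3, control spots at weight 0), the 3 spots were averaged and the 2 dye-exchanged arrays of a mouse were averaged. The dye effect of each probe, from these exchanges (SD 0.14), was taken off the single-orientation ratios of the positive control. One mean per group was fitted over 14 mice with eBayes (11 residual and 3.36 prior degrees of freedom) and Benjamini-Hochberg adjustment over 120 probes at 0.05. The fit was tested on simulated data. Where a channel was above background on none of a group's arrays, only a bound could be had, and bounds under 1 are not given. The number of arrays limits the precision. No 2 arrays were identical, no spot of the 7 genes was saturated, and the lowest correlation between arrays of 1 dye orientation was -0.27.

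The 7 genes and the lists were chosen with earlier results of these data known. Named were the 7, the 3 probes most like them, and list members past the threshold, at most 6 a list. Nr1i3 and Hnf4a were named after their values were seen. Alternatives covered background, centring, spot summary, filter, weights, dyes, blocks and left-out mice. Labels give 5 mice the same numbers in both antiviral groups, but same-numbered mice correlated at -0.21 to 0.27, so the numbers were not taken as pairs. Figures used Python 3.11.15 with matplotlib 3.10.9.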

Additional observations from a re-analysis of the deposited data

Results flagged for a closer look

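Among 28 sets of 4 or 5 values (7 genes in 4 sets of arrays), 3 held a value far from the others by Dixon's criterion, which chance gives in about 1 set of 20. Pool array 1, with positive-control RNA in Cy5, read -0.73 for Cyp2c40, whereas the other 3 pool arrays read -1.25 to -1.20. The same array read -0.058 for Cyp4b1, against -0.34 to -0.32 on the other 3. These pool values were not corrected for dye. Adefovir mouse 3 had -0.30 for Cyp4f14, against 0.02 to 0.09 in the other 4 mice, and was the mouse in which all 7 genes were negative.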

How the results depend on the processing

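After adefovir and for the difference between the antivirals, 0 of the 7 genes passed under every alternative run, including each left-out mouse (0 to 0). After tenofovir the count was 0 with each left-out mouse (0 to 0) and under all alternatives except single dye orientations, where it was 1 with treated RNA in Cy3 only (Cyp4b1, 0.35, adjusted p = 0.00188 with limma) and 1 in Cy5 only (Cyp2j6, -0.24, adjusted p = 0.0490); in the other orientation each had the opposite sign and did not pass (Cyp4b1 -0.13, Cyp2j6 0.17). With the mouse number as a replicate block the counts were 0, 0 and 0; only 2 of 5 adefovir mice correlated best with their own number. Of 620 tested single-gene values under alternatives, 2 passed and 87 changed sign without passing. The median of the 7 genes in the positive control, -0.49, was -0.27 with median centring, -0.76 with calibration RNAs, -0.75 with luciferase and -0.73 with Actb, Gapdh and Ppia. On pool arrays it was -0.70, -0.31 and -0.23 with the first 3 of these centrings. In single mice, with 1 mouse left out at a time, it was -0.60 to -0.45. The authors' series table gave -0.98, but for 4 genes only. It lacked values for Cyp4b1, Cyp2j6 and Cyp4f14, so -0.98 is not comparable with the median of 7. Signs turned in the positive control for Cyp4b1 (0.32 in Cy3 only, 0.066 and 0.14 on pool arrays with calibration RNAs and luciferase), Cyp2j6 (0.15 in Cy3 only, 0.055 on pool arrays with luciferase) and Cyp2d22 (0.24 with median centring, 0.14 in Cy3 only). The cause was not tested. The Cy3-only view, the other centrings of the pool arrays the overlap counts under other scalings and the fit without the positive control were chosen after seeing the data. Signal over background limits Cyp4b1, Cyp2j6 and Cyp4f14 most.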
